A study of Sus scrofa with 24 samples.

Results

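The interferon-stimulated genes described here are 44 symbols chosen by name, as genes that type I or type III interferon is known to induce. Earlier results of these data were known when they were chosen. Of the 44, 41 had a row in the count table of 25880 pig genes, and 39 were kept because they reached a CPM of 1 (counts scaled to library size) in at least 4 of the 24 libraries. IFIT3, OAS1 and XAF1 had no row of that symbol and were not analysed here. The RNA sensor RIG-I, listed as DDX58, carried the newer symbol RIGI. Of the 2 members with a row that were not kept, CXCL9, a T-cell-attracting chemokine, had 0 to 5 counts a library, and UBA7, the activating enzyme for ISG15, reached 1 CPM in 3 libraries.

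Bronchial epithelial cells of wild-type, 1-month-old pigs were grown at an air-liquid interface, which lets airway epithelium differentiate. A first incubation of 1 h was with DMSO, as solvent control, or with the p38 MAP kinase inhibitor SB203580 at 20 µM. They then received either PBS or 100 ng/ml flagellin, the flagellum protein of bacteria that the receptor TLR5 recognises. The groups, with 4 libraries each, were DMSO then PBS, DMSO then flagellin, and SB203580 then flagellin, each at 2 h and at 24 h; they are called PBS, flagellin and SB203580 plus flagellin, and a group with SB203580 but no flagellin was not analysed here. The study asked how flagellin and p38 inhibition change the transcriptome of this epithelium.

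Interferons bind receptors on the cell surface and, through JAK kinases, activate transcription factors, among them STAT2 and IRF9, which switch on a large common set of antiviral genes. The products of that set sense viral RNA, block viral translation or replication, attach the ubiquitin-like protein ISG15 to other proteins, or feed back on the pathway. Airway epithelium keeps this programme at a low resting level and raises it when viral RNA or interferon is present.

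Libraries held 26345945 to 36267289 counts. Replicates 1 and 2 and replicates 3 and 4 formed 2 sets of 12 libraries, with 2 libraries of each set in every group. The sets were seen to differ in an earlier analysis of these data, so the split was not fixed beforehand. The p-values for the sets do not allow for this choice. EIF1AY, on the Y chromosome, was at 17.9 to 32.2 CPM in the first set and at 0 to 0.0284 CPM in the second, so the sets came from different animals; the labels do not say whether 1 and 2, or 3 and 4, were separate animals or cultures. Each p-value below therefore measures the spread between libraries, which may be partly technical. All 5 epithelial markers with a row, among them EPCAM and CDH1, were above the same CPM threshold as the members. Of 10 myeloid markers, 5 reached 1 CPM in at least 4 libraries, with summed levels of 29.7 to 172 CPM over the 24 libraries, highest in replicate 1 of SB203580 plus flagellin at 24 h. CD163 (macrophages) had 0 counts in every library and PTPRC, found on all leukocytes, stayed below 1 CPM. Of 10 lymphocyte markers with a row, 2 reached that level, with sums of 2.38 to 5.56 CPM, and CD3E (T cells) had 0 counts.

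The interferon-stimulated genes varied together from library to library, and much of their spread followed the replicate number. Their mean log2 CPM ranged from 3.39 to 5.28, median 4.30, over the 12 libraries of replicates 1 and 2. Over the 12 libraries of replicates 3 and 4 it ranged from 2.86 to 4.17, median 3.42. In 5 of the 6 groups both libraries of the first set lay above both of the second; PBS at 2 h was the exception, where replicate 4 (4.17) was the highest library and replicate 2 (3.39) the lowest. Of all 24 libraries the highest was replicate 1 of the SB203580 plus flagellin group at 2 h, and the lowest was replicate 4 of flagellin at 24 h. In bulk RNA, fewer expressing cells and less RNA per cell cannot be told apart.

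**Figure D1:**
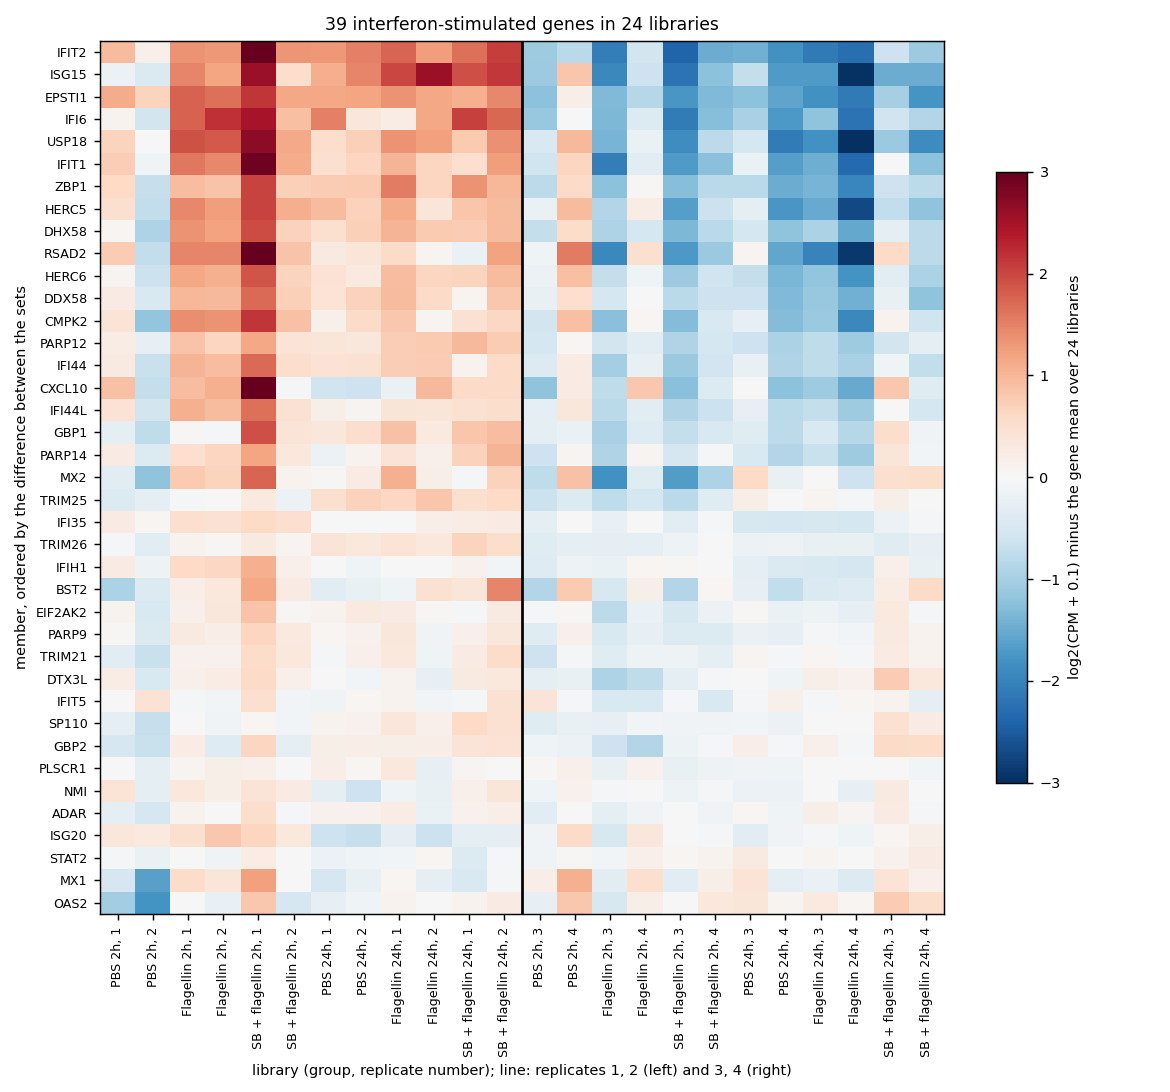
Heat map of log2(CPM + 0.1) of the 39 kept members (rows) in the 24 libraries (columns, by group and replicate number), each gene centred on its mean over the libraries. Replicates 1 and 2 stand left of the black line and replicates 3 and 4 right of it; genes at the top, such as IFIT2, ISG15 and EPSTI1, are mostly high on the left and low on the right, while MX1 and OAS2 at the bottom are not.

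**Figure D2:**
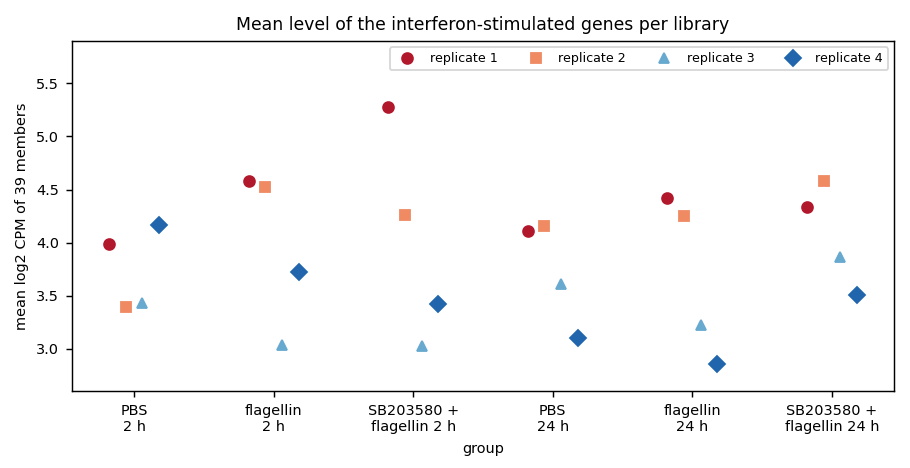
Mean log2 CPM of the 39 kept members in each library (vertical axis), by group (horizontal axis), with 1 point per library and a colour and shape per replicate number. Replicates 1 and 2 lie above replicates 3 and 4 in every group other than PBS at 2 h, where replicate 4 is highest at 4.17.

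Per kilobase of exon, which allows genes to be compared, MX1, a dynamin-like GTPase that blocks viral replication, had the highest median at 19.1 CPM per kb. TRIM26 (18.7), a ubiquitin ligase, IFI6 (17.3), an endoplasmic reticulum protein with antiviral action, TRIM25 (15.9), the ligase that activates RIG-I, and ISG15 (14.9) followed. The lowest were RSAD2 (1.10), which makes a chain-terminating nucleotide, the chemokine CXCL10 (0.570) and GBP1 (0.319). Neighbours in this order overlapped over the libraries, and the GBP1 row spans several genes of its family, so its length is uncertain. Members also differed in how far they ranged. RSAD2 spanned 80.4-fold, from 0.965 to 77.6 CPM, USP18 62.1-fold, IFIT2 50.0-fold and ISG15 47.8-fold. PLSCR1, a phospholipid scramblase, spanned 1.52-fold and STAT2, the interferon-specific STAT, 1.61-fold. The SD of log2 CPM within a group had a median of 0.61 over the members and 0.30 over all 14172 genes tested, and within a group and set 0.42 against 0.18.

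Replicates 3 and 4 had lower levels than replicates 1 and 2 for 25 of the 39 members and a higher level for 1, by edgeR's quasi-likelihood F test with 1 term per group and replicate number and an adjusted p under 0.05. Over all genes tested, 31.9% were lower and 30.6% higher, and 62.5% were called in either direction, against 66.7% of the members. The median log2 fold change was -0.62 over the members and -0.00 over all genes. All 4 kept members of the ISG15 system were lower, as were all 3 RNA sensors, 10 of 18 antiviral effectors, 4 of 8 signalling and nuclear regulators, 2 of 3 TRIM ubiquitin ligases, 1 of 2 guanylate-binding proteins and the chemokine CXCL10.

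Among the effectors, IFIT2 (14:101193078-101206684, as deposited), which binds viral RNA and curbs its translation, ranged from 9.64 to 77.2 CPM, median 21.8, in replicates 1 and 2. In replicates 3 and 4 it ranged from 1.54 to 5.83 CPM, median 3.06. The sets did not overlap, and the log2 difference was -2.99 (SE 0.294, edgeR adjusted p 1.12e-07). EPSTI1 (11:24116986-24216215), named for epithelial-stromal interaction, was the other member without overlap, with 8.45 to 23.6 CPM against 1.14 to 5.96 and a difference of -2.67 (SE 0.224, edgeR adjusted p 1.21e-08). These 2 of 39 members stand beside 8.46% of all genes tested whose sets did not overlap. IFI6 fell by 2.36, IFIT1, a sensor of uncapped RNA, by 1.96, ZBP1, a sensor of Z-form nucleic acid, by 1.79 and RSAD2 by 1.48 on the log2 scale from the first set to the second. CMPK2, a mitochondrial nucleotide kinase next to RSAD2, IFI44 and IFI44L, 2 related interferon-induced proteins, and EIF2AK2, the kinase PKR that halts translation, were lower by smaller amounts, with differences of -1.27, -1.15, -1.01 and -0.33.

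In the ISG15 system, ISG15 itself (6:63362889-63365398), the ubiquitin-like protein, ranged from 28.7 to 232 CPM, median 107, in replicates 1 and 2 and from 4.85 to 69.3, median 13.7, in replicates 3 and 4. Its difference was -2.76 (SE 0.476, edgeR adjusted p 7.45e-05), and the sets overlapped only through replicate 4 of PBS at 2 h. USP18, the protease that removes ISG15 and dampens interferon signalling, differed by -2.34. The ligase HERC5 and its relative HERC6 differed by -1.70 and -1.37. Of the RNA sensors, DHX58 (LGP2) differed by -1.54, DDX58 (RIG-I) by -1.29 and IFIH1 (MDA5) by -0.41. Among the regulators, the ADP-ribosyltransferases PARP12, PARP14 and PARP9 differed by -1.18, -0.78 and -0.32, and IFI35 by -0.51. TRIM25 differed by -0.51, TRIM26 by -0.46, GBP1 by -0.88 and CXCL10 by -1.04.

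MX1 and OAS2, both widely used as interferon markers, did not share this difference. MX1 (13:204847561-204868477) ranged from 12.4 to 89.9 CPM in replicates 1 and 2, median 34.9, and from 28.5 to 80.3, median 42.8, in replicates 3 and 4, a difference of 0.21 (95% interval -0.29 to 0.71, edgeR adjusted p 0.455). OAS2 (14:38827673-38860820), which makes the signal that activates RNase L, ranged from 10.6 to 65.1 CPM, median 35.3, and from 26.2 to 64.3, median 43.5 (difference 0.42, 95% interval 0.03 to 0.82, edgeR adjusted p 0.0586). Both medians were higher in replicates 3 and 4, and both ranges overlapped. STAT2 was the 1 member called higher (0.15, edgeR adjusted p 0.0421); 49.4% of its exon bases are shared with other genes, and the call was lost at 2 h alone and on leaving out any 1 replicate number. Within each set MX1 still followed the other members: its correlation with their mean was r = 0.95 over the 12 libraries of replicates 1 and 2 and 0.98 over the 12 of replicates 3 and 4. For OAS2 these values were 0.90 and 0.73. The OAS2 row also reaches the RefSeq position of OAS1. The other 11 members without a call ranged from -0.62 in MX2, a relative of MX1, to -0.00 in ISG20, an RNA exonuclease. They were MX2, BST2, TRIM21, DTX3L, IFIT5, SP110, GBP2, PLSCR1, NMI, ADAR and ISG20.

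**Figure D3:**
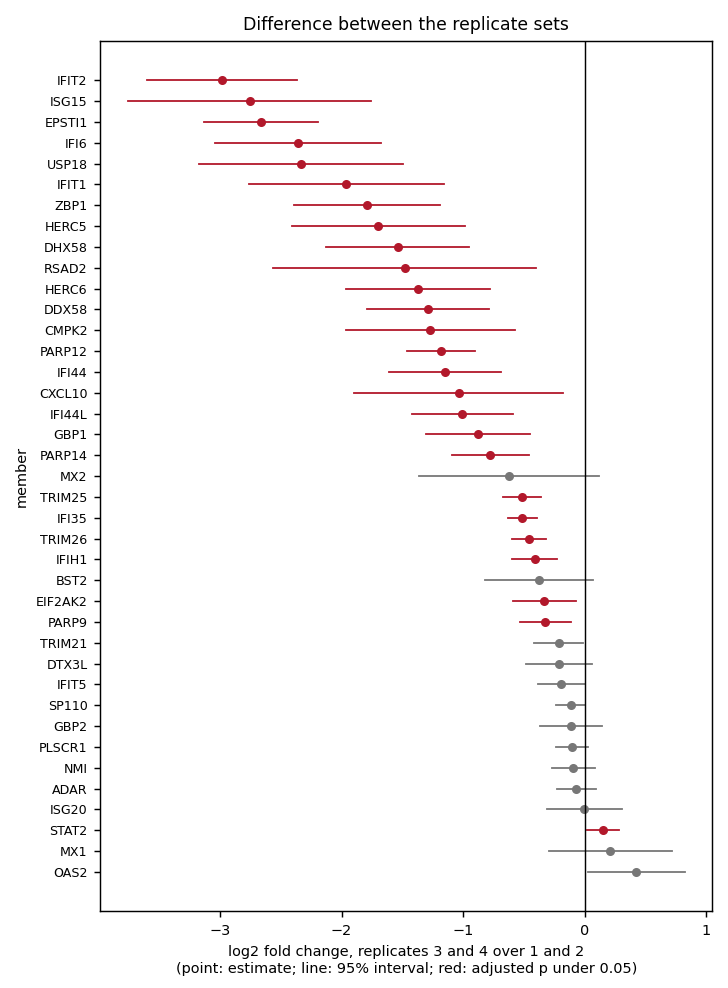
Log2 fold change of each kept member in replicates 3 and 4 over replicates 1 and 2 (horizontal axis), with its 95% interval, members ordered by size; red marks an edgeR adjusted p under 0.05. IFIT2 is lowest at -2.99, OAS2 highest at 0.42, and 25 members in red lie below 0 against 1 above.

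In single groups the numbers of a set could differ, in opposite directions. Replicate 4 was above replicate 3 in 37 of 39 members in PBS at 2 h (48.5% of all genes). Replicate 3 was above replicate 4 in 36 members in PBS at 24 h (50.1%). Averaged over the 6 groups, members were called between the sets and not between single numbers of a set. Whether a number within a set marks the same animal or culture across groups is not shown. Such an average therefore cannot show whether single libraries of a set differed. By edgeR, 0 members differed between replicates 1 and 2 (1 at an unadjusted p under 0.05; 0% of all genes called) and 0 between replicates 3 and 4 (0 at an unadjusted p under 0.05; 0% of all genes); no other tool was run on these pairs. Replicate 3 differed from replicate 1 in 25 members (48% of all genes) and from replicate 2 in 20 (44.6%). Replicate 4 differed from replicate 1 in 22 (47.6%) and from replicate 2 in 19 (45.1%), 18 of them lower. At 2 h alone 20 members were called (53.1% of all genes) and at 24 h alone 27 (59.4%). Leaving out replicate 1, 2, 3 or 4 gave 23, 27, 21 and 23 calls, against 51.2%, 55.8%, 49.9% and 50.1% of all genes; CXCL10 lost its call without replicate 1, 3 or 4, EIF2AK2 without 1, 3 or 4, PARP9 without 1 or 3, and RSAD2 without 3 or 4. Without 5 libraries of the first set with low ciliated markers, 27 members were called, all lower, against 54.5% of all genes in either direction. Ciliated sums were 27.6 to 40.1 CPM in those 5 libraries and 52.3 to 93.2 in the other 7 of the first set. The second set, at 29.7 to 67.2 CPM, was left whole, so this did not even out ciliated levels between the sets. The secretory sums of those 5 libraries, 667 to 2590 CPM, overlapped those of the other 7, at 2434 to 3425, only through replicate 1 of SB203580 plus flagellin at 24 h. Below all of the other 7 were replicate 2 of flagellin at 24 h (667), of PBS at 2 h (949) and of SB203580 plus flagellin at 24 h (1591). So was replicate 1 of SB203580 plus flagellin at 2 h (2133).

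Cell type markers moved with the sets too, where 31.9% of all genes were lower and 30.6% higher in replicates 3 and 4. The summed CPM of 9 secretory cell markers was 667 to 3425 (median 2457) in replicates 1 and 2 and 549 to 1149 (median 741) in replicates 3 and 4, with all 9 called lower. All 8 squamous markers were lower as well, with sums of 2200 to 12644 against 1856 to 2611, and 5 of 10 tested ciliated markers were lower and 1 higher. Summed plasmacytoid dendritic cell markers were 6.51 to 14.0 CPM against 15.3 to 38.1; of the 5 with a row, IRF8 and TCF4 were tested and both were higher, and TLR7, TLR9 and SPIB stayed below 1 CPM in all libraries. Fibroblast and smooth muscle markers summed to 207 to 446 CPM (median 296) against 119 to 218 (median 181), with 3 of 8 tested markers lower and 2 higher. Myeloid markers summed to 51.8 to 172 CPM (median 62.7) against 29.7 to 60.1 (median 42.1), with 3 of 6 lower and 2 higher. Endothelial sums went the other way, with 85.3 to 363 CPM (median 164) against 162 to 517 (median 295). Of 3 tested endothelial markers 1 was higher, and their median log2 difference was -0.01. CDH5 and TEK stayed below 1 CPM in all libraries, and VWF and CLDN5 had no row. Basal markers summed to 501 to 831 CPM (median 632) against 677 to 973 (median 839), with 2 of 4 higher and 2 lower. The part of all these markers in the members' difference was not tested.

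Of the upstream genes of the pathway, the ligands with a row gave little signal. The listed ligands IFNA1, IFNW1, IFNL1 and IFNL3 had no row of that symbol, so their levels are not known here. IFNB1 was at 0 to 0.206 CPM, IFNK at 0 to 0.0282 and IFNE at 0.187 to 1.24, and IFNG had 0 counts in every library. Of 30 tested ligand, receptor and signalling genes, 15 were lower and 7 higher in replicates 3 and 4. Over all genes tested, 31.9% were lower and 30.6% higher. IRF7, which amplifies interferon production, was lower by 0.51 on the log2 scale (-0.51, edgeR adjusted p 0.00257). IFNAR1, a chain of the type I receptor, was higher (0.87, edgeR adjusted p 1.22e-07). Of 23 other tested interferon-stimulated genes, 10 were lower, OASL (-3.19) and CXCL11 (-1.99) among them, and 8 higher, NLRC5 (1.53, edgeR adjusted p 1.12e-08) and PARP11 (0.88) among them. These counts too stand beside 31.9% of all genes lower and 30.6% higher.

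Flagellin at 2 h changed 0 members by edgeR, where it changed 0.325% of all genes (46). By DESeq2 0 members passed too; at an unadjusted p under 0.05 both tools had 2, which by edgeR were IFIT5 (-0.47) and SP110 (0.28). The members' median log2 fold change was 0.28, against -0.00 over all genes, and 37 of 39 were above 0. The largest were IFI6 (1.51, SE 0.987), DHX58 (0.74, SE 0.719), USP18 (0.70, SE 1.01) and CXCL10 (0.67, SE 0.765), all with an edgeR adjusted p of 1. The median SE was 0.41 for members and 0.21 for all genes. The cultures did respond upstream: IRF1, a transcription factor shared by interferon and NF-kB signalling, rose from 18.4 ± 5.23 CPM in PBS to 186 ± 31.0 in flagellin (SD, n = 4 each; log2 fold change 3.34, edgeR adjusted p 7.21e-06). IKBKE, a kinase upstream of IRF3, rose too (0.89, edgeR adjusted p 0.0158), and without a block the other 28 of the 30 upstream genes and all 23 other interferon-stimulated genes did not pass the test. With the replicate block 4 upstream genes passed, IRF1, IKBKE, the type I receptor chain IFNAR2 (1.06, edgeR adjusted p 0.0345) and the TLR3 adaptor TICAM1 (0.61, edgeR adjusted p 0.0465). Among the 23, the block called 1, the transcription factor BATF2 (1.56, edgeR adjusted p 0.0210).

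Seen within each replicate number, flagellin and PBS differed in opposite directions in the sets. Flagellin was higher than PBS for 36 members in replicate 1 and 38 in replicate 2, with median differences of 0.43 and 0.99. It was lower for 29 members in replicate 3 and 32 in replicate 4, with medians of -0.30 and -0.41. Over all genes the share that was higher lay between 47.3% and 52.5% in each number. The members moved together from library to library, so the counts here and below are not independent. Pairing by single number within a set is not shown. In all, 25 of 39 members were higher in both of replicates 1 and 2 and lower in both of replicates 3 and 4, and 0 had the reverse pattern. The share of all genes with either pattern was not computed. Fitted within replicates 1 and 2 alone, the members' median was 0.74, with 19 at an unadjusted p under 0.05. Within replicates 3 and 4 alone it was -0.43, with 4. By edgeR 0 members passed the adjusted test in either. The median of all genes and their share at that p in these fits are not given here. With the replicate number as a block the median over all 4 numbers was 0.08, with 0 calls.

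MX1 shows the pattern. In PBS at 2 h it was at 27.1, 12.4, 44.1 and 80.3 CPM in replicates 1 to 4, and in flagellin at 56.0, 48.8, 30.4 and 54.0. Replicates 1 and 2 were thus higher with flagellin and replicates 3 and 4 lower, and the groups overlapped. ISG15 was at 34.2, 28.7, 18.1 and 69.3 CPM in PBS and at 106, 87.2, 10.0 and 25.0 in flagellin, again with replicates 1 and 2 higher and 3 and 4 lower. DHX58 was at 7.44, 3.72, 4.34 and 10.6 CPM in PBS and at 18.2, 16.7, 3.72 and 4.96 in flagellin. In all 3 genes replicate 4 was the highest of the PBS libraries, and in MX1 it was the highest of the 8.

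The difference of the flagellin effect between the sets, tested as an interaction, was called for 0 members by edgeR and 0 by DESeq2 (0.00706% of all genes by edgeR). With p under 0.05 before adjustment both tools had 20 of 39 members, and edgeR 3.11% of all genes. The median interaction was -0.99 over members and 0.01 over all genes, and 38 of 39 were below 0. The values were -2.43 for DHX58 (SE 0.642, p 0.00176), -2.23 for HERC6 (SE 0.600, p 0.00207), -1.98 for MX1 (SE 0.622, p 0.00661) and -2.94 for ISG15 (SE 0.985, p 0.00991), each with an edgeR adjusted p of 1.00. The 2 PBS libraries of each set differed from each other as well: replicate 1 was above replicate 2 in 36 of 39 members (46.9% of all genes), and replicate 4 above replicate 3 in 37 (48.5%). Replicate 2 of PBS at 2 h also had low ciliated markers (30.6 CPM summed, against 81.0 in replicate 1); their part in the difference was not tested.

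**Figure D4:**
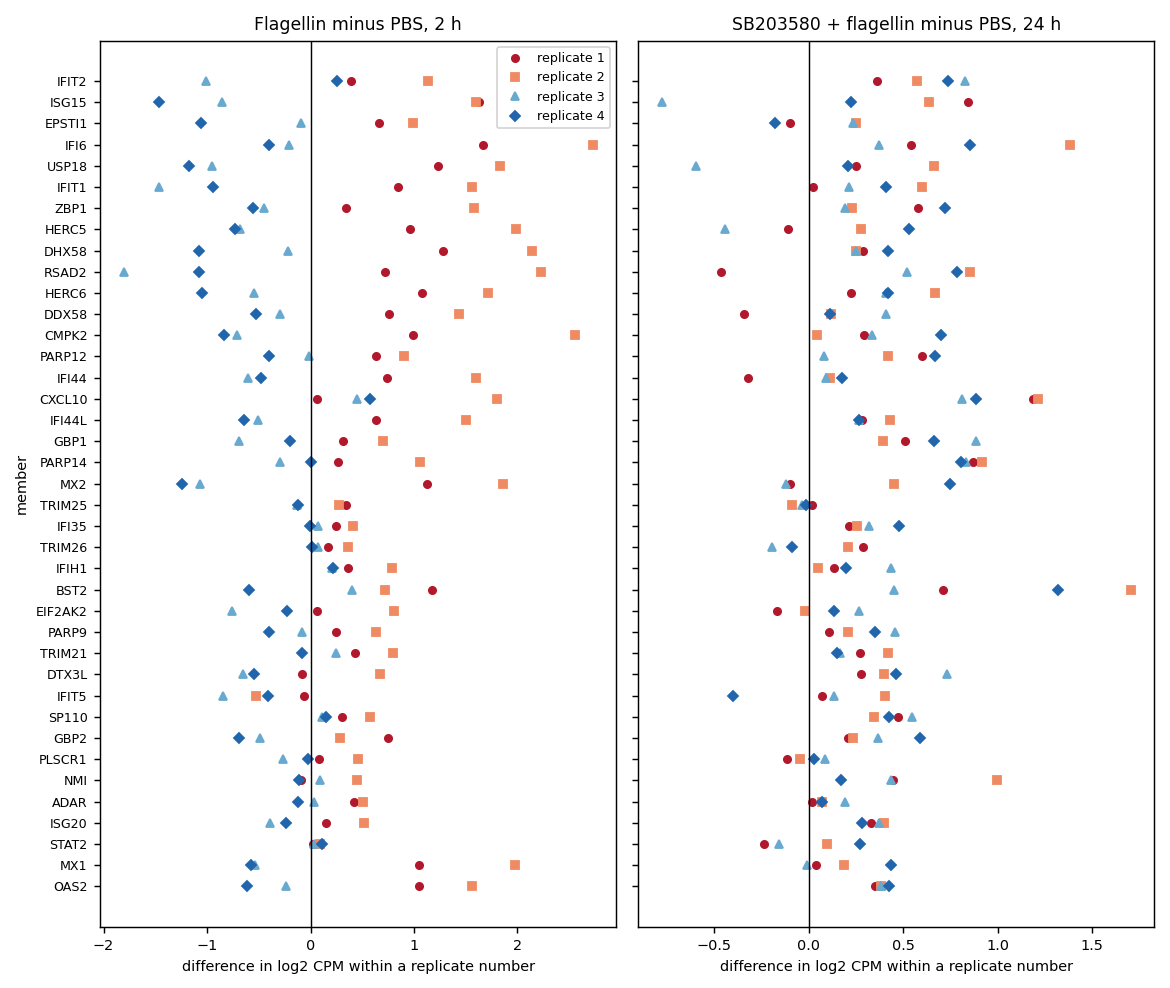
Difference in log2 CPM within each replicate number for the 39 members (vertical axis, ordered as by the set difference): flagellin minus PBS at 2 h on the left, and SB203580 plus flagellin minus PBS at 24 h on the right. On the left replicates 1 and 2 lie mostly above 0 and replicates 3 and 4 below it; on the right most points of all 4 numbers lie above 0.

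At 24 h flagellin changed 0 members by edgeR (0% of all genes; 0 members at an unadjusted p under 0.05; DESeq2 0 and 0). The median was 0.06, against 0.02 over all genes, and turned to -0.12 without replicate 1 of flagellin and to -0.03 without replicate 2 of flagellin or replicate 4 of PBS. The largest differences were ISG15 (0.84, SE 1.15), CXCL10 (0.44, SE 0.772), RSAD2 (-0.41, SE 0.938) and USP18 (0.39, SE 1.01). ISG15 was at 82.3, 107, 23.4 and 11.8 CPM in PBS and at 155, 230.4, 11.7 and 4.85 in flagellin. It was higher with flagellin in replicates 1 and 2, lower in replicates 3 and 4, and the groups overlapped. The members' interaction with the set had a median of -0.42, with 0 called by edgeR (0% of all genes; 0 members at an unadjusted p under 0.05) and 0 by DESeq2 (1 at an unadjusted p under 0.05). The flagellin effect did not differ between times for any member by edgeR (0.0423% of all genes; 0 members at an unadjusted p under 0.05) or by DESeq2 (0 and 0).

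Adding SB203580 to flagellin changed 0 members at 2 h (0.00706% of all genes) and 0 at 24 h (0%) by edgeR. Before adjustment 0 and 2 had a p under 0.05, and DESeq2 called 0 at both times, with 2 and 3 before adjustment. The members' medians were 0.15 at 2 h and 0.22 at 24 h, against 0.01 and 0.00 over all genes. At 2 h the largest values were IFIT2 (1.02, SE 1.14), GBP1 (1.01, SE 0.485), RSAD2 (0.78, SE 0.930) and CXCL10 (0.76, SE 0.759). Over all genes 49.5% to 51.5% were higher with SB203580 in each number. Replicate 1 was higher with SB203580 in 39 of 39 members (median 0.63), while 28, 21 and 31 members were lower in replicates 2, 3 and 4. Without that SB203580 library the members' median turned to -0.27, and without replicate 3 of flagellin to -0.03. RSAD2, for example, was at 77.6, 14.4, 2.33 and 3.61 CPM with SB203580 and at 22.0, 22.0, 2.00 and 11.1 without. GBP1, a GTPase induced most by interferon gamma, was at 22.2 CPM in that replicate 1 and at 2.87 to 7.53 in the other 7 libraries. Replicate 1 was above replicate 2 for 39 of 39 members within SB203580 plus flagellin at 2 h (50.4% of all genes). It was over 2-fold above in 17, where 8.44% of all genes differed over 2-fold in either direction. Its ciliated markers summed to 35.5 CPM against 52.3 in replicate 2, and its squamous markers to 12579 against 3959; their part was not tested.

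At 24 h the order by number was different. SB203580 plus flagellin was above flagellin for 15, 32, 37 and 35 of 39 members in replicates 1 to 4 (49.6%, 51.7%, 51.0% and 53.8% of all genes). IFI6 was at 109, 87.6, 17.3 and 14.3 CPM with SB203580 and at 30.8, 58.4, 11.3 and 5.62 without, higher within every number although the groups overlapped (1.11, SE 0.977). RSAD2 (0.86, SE 0.940), BST2, the surface protein that tethers budding virus (0.83, SE 0.407), and PARP14 (0.73, SE 0.390) were the next largest, with an edgeR adjusted p of 1.00 for each. The SB203580 effect differed between times for 0 members by edgeR (0% of all genes; 0 members at an unadjusted p under 0.05) and 0 by DESeq2 (0). Between the sets it differed for 0 at 2 h (0% of all genes) and 0 at 24 h (0.00706%) by edgeR, where 2 and 1 had p under 0.05 before adjustment, and for 0 at both times by DESeq2, with 3 and 0 before adjustment.

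SB203580 plus flagellin was also set against PBS; these comparisons share the PBS libraries with those of flagellin above. At 2 h 0 members were called by edgeR (0.183% of all genes; 5 members at an unadjusted p under 0.05) and 0 by DESeq2 (6). Higher were 38 members in each of replicates 1 and 2, while 29 and 32 were lower in replicates 3 and 4. Over all genes 48.9% to 51.6% were higher in each number. The median was 0.49 over the members, against 0.01 over all genes. It turned to -0.11 without replicate 1 of SB203580 plus flagellin and to -0.19 without the 5 libraries low in ciliated markers. The largest were IFIT2 (1.55, SE 1.15), CXCL10 (1.42, SE 0.773), IFI6 (1.33, SE 0.983) and IFIT1 (1.13, SE 0.914). With 1 term for each set and time, 1 member was called against 1.98% of all genes: TRIM26, with 31.4, 26.2, 25.7 and 26.7 CPM in PBS and 40.0, 35.0, 29.7 and 33.4 in SB203580 plus flagellin, was higher within every number (0.32, SE 0.0818, edgeR adjusted p 0.0430).

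At 24 h SB203580 plus flagellin gave 0 calls against PBS by edgeR (0.00706% of all genes; 4 members at an unadjusted p under 0.05) and 0 by DESeq2 (5), but its direction was shared by more numbers than in the other treatment comparisons. It was higher for 30, 36, 31 and 35 of 39 members in replicates 1 to 4, where all genes had 50.7% to 53.4%. In all 4 numbers 24 members were higher, against 1 to 11 in the other 5 treatment comparisons. The share of all genes higher in all 4 was not computed. The median was 0.32, against 0.02 over all genes; it was 0.14 without replicate 2 of SB203580 plus flagellin and 0.15 without replicate 4 of PBS, and 0.06 without the same 5 libraries, which include both replicates 1 and 2 of SB203580 plus flagellin. SP110, a nuclear body protein, was at 19.1, 19.3, 16.6 and 15.7 CPM in PBS and at 26.6, 24.5, 24.3 and 21.1 with SB203580 and flagellin. The groups did not overlap; the difference was 0.45 (SE 0.111, edgeR adjusted p 0.714), and with a term for the set it was 0.45 (SE 0.0885, edgeR adjusted p 0.0301), the 1 member called there against 0.459% of all genes. BST2 (1.13, SE 0.410), CXCL10 (1.04, SE 0.774), PARP14 (0.87, SE 0.391) and IFI6 (0.82, SE 0.971) were the largest. BST2 was at 4.94, 5.36, 5.32 and 3.73 CPM in PBS and at 8.14, 17.6, 7.30 and 9.42 with SB203580 and flagellin, again without overlap. Marker sums moved in this comparison too. Myeloid markers summed to 52.4, 53.4, 49.8 and 39.1 CPM in PBS and to 172, 73.8, 59.6 and 60.1 with SB203580 and flagellin, higher within every number and without overlap. Squamous markers summed to 2200 and 2784 CPM in replicates 1 and 2 of PBS and to 9475 and 6154 with SB203580 and flagellin, and ciliated markers to 79.3 and 68.1 against 30.4 and 27.6. Endothelial markers summed to 345 and 363 CPM in replicates 1 and 2 of PBS and to 148 and 159 with SB203580 and flagellin. The part of these markers in the members' differences was not tested.

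In PBS, TRIM25 and SP110 were called higher at 24 h than at 2 h, a smaller share of members than of all genes. TRIM25 was at 22.9, 24.9, 19.5 and 22.8 CPM in PBS at 2 h and at 42.1, 49.1, 35.0 and 30.6 at 24 h. Every 24 h library lay above every 2 h library (0.80, SE 0.234, edgeR adjusted p 0.0342). SP110 was at 14.4, 10.9, 13.7 and 15.1 CPM at 2 h and at 19.1, 19.3, 16.6 and 15.7 at 24 h, also without overlap (0.39, SE 0.111, edgeR adjusted p 0.0316). These 2 of 39 members, 5.13%, stand beside 10.2% of all genes, and the members' median was 0.02 against -0.01. Each call was close to the threshold: without PBS at 2 h replicate 2 or 3, or PBS at 24 h replicate 1 or 2, neither was called (0 members), and TRIM25 was also lost without PBS at 2 h replicate 1 or 4 or PBS at 24 h replicate 3.

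**Figure D5:**
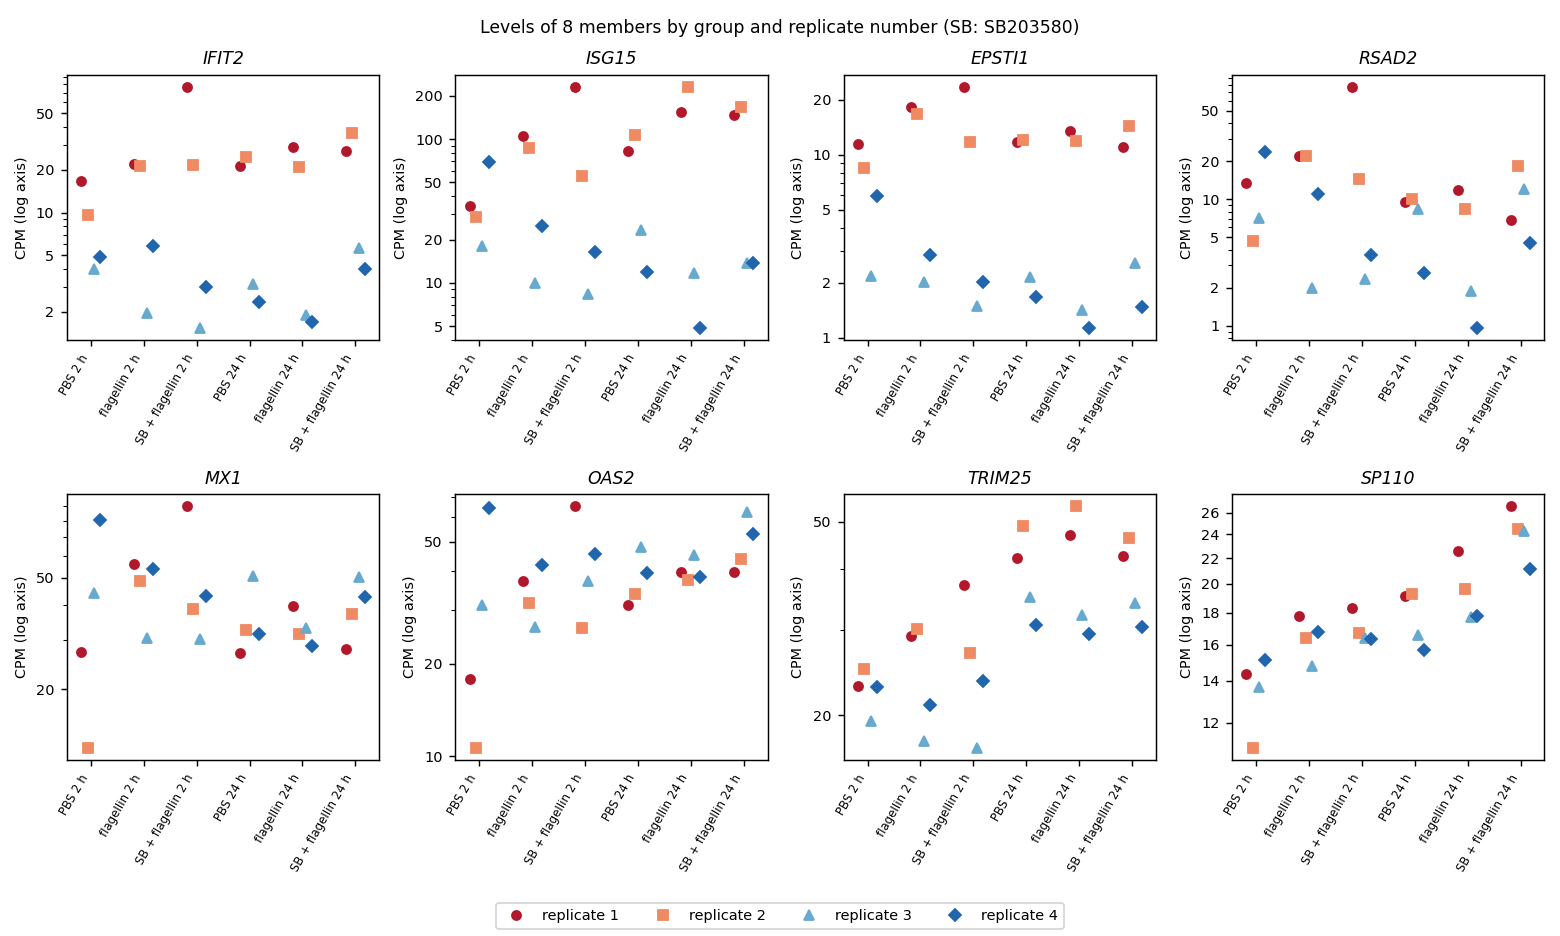
CPM on a log axis (vertical) of 8 members by group (horizontal), with 1 point per library and a colour and shape per replicate number. IFIT2 and EPSTI1 separate replicates 1 and 2 from 3 and 4 in all groups, MX1 and OAS2 do not, TRIM25 is higher at 24 h than at 2 h in all 4 numbers of each treatment, and SP110 reaches 21.1 to 26.6 CPM in SB203580 plus flagellin at 24 h.

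With the replicate number as a block, 4 members were called between 24 h and 2 h in PBS (22.5% of all genes): TRIM25 (0.77), SP110 (0.38), TRIM26 (0.35) and ISG20 (-0.72). With a term for the set these 4 and NMI (-0.52), a partner of IFI35, were called, against 34.4% of all genes. ISG20 was at 4.83, 4.69, 3.54 and 5.75 CPM in PBS at 2 h and at 2.44, 2.31, 3.06 and 3.52 at 24 h. All 4 of its 24 h libraries lay below all 2 h libraries (without the block -0.73, SE 0.251, edgeR adjusted p 0.0683).

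In flagellin, 24 h and 2 h differed in 0 members by edgeR (7.9% of all genes; 5 members at an unadjusted p under 0.05) and in 1, TRIM25, by DESeq2 (11.5% of all genes). The block called 3 (18.8% of all genes): TRIM25 (0.72), IFIH1 (-0.52) and IFI35 (-0.38). IFIH1, the sensor of long double-stranded RNA, was at 28.8, 29.6, 16.7 and 20.0 CPM at 2 h and at 19.3, 19.1, 13.9 and 13.4 at 24 h, lower at 24 h within every number, with overlap between the groups. The term for the set called 7 members (31.2%), adding ISG20 (-1.04), NMI (-0.43), SP110 (0.34) and TRIM26 (0.40). RSAD2 (-1.31, SE 0.947), IFI6 (-1.18, SE 0.978) and CMPK2 (-0.93, SE 0.714) had the largest differences and no call.

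In SB203580 plus flagellin, SP110 was called between times (6.88% of all genes): 18.3, 16.7, 16.4 and 16.3 CPM at 2 h and 26.6, 24.5, 24.3 and 21.1 at 24 h, without overlap (0.51, SE 0.111, edgeR adjusted p 0.00761). The block added TRIM25 (0.57; 17.1% of all genes), and the term for the set gave 5 calls (30.7%), with TRIM26 (0.31), IFIH1 (-0.49) and ISG20 (-0.76). SP110 shares 6.36% of its exon bases with a neighbouring gene.

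The members' correlation with the mean of the other members had a median of 0.87 over replicates 1 and 2, with 35 of 39 above 0.5, and of 0.76 over replicates 3 and 4, with 29 above 0.5. These are descriptions over 12 libraries each, which share 6 groups. HERC6 (0.98 and 0.86), DHX58 (0.97 and 0.95) and CMPK2 (0.92 and 0.99) followed the rest closely. TRIM25 (0.28 and 0.13), TRIM26 (0.47 and -0.37) and IFIT5 (0.14 and -0.06), a relative of IFIT1, did not. TRIM25, TRIM26 and SP110 (0.52 and 0.19), 3 of the members named above for time, were thus among the 10 members with a value under 0.5 in replicates 3 and 4.

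The non-member genes most like the members' mean over the 24 libraries were FBXO39 (r = 0.93), ETV7 (0.93), FOXS1 (0.90), ISG12(A) (0.88) and HSH2D (0.88). These values include the difference between the sets. Within replicates 1 and 2 they were, in the same order, 0.91, 0.97, 0.71, 0.87 and 0.79. Within replicates 3 and 4 they were 0.78, 0.60, 0.89, 0.77 and 0.62. The FBXO39 row, at 12:50635905-50659642 as deposited, spans the RefSeq position of XAF1, the listed apoptosis regulator that had no row of its own. It ranged from 0.939 to 10.6 CPM, median 4.83, in replicates 1 and 2 and had a median of 1.33, highest 3.68, in replicates 3 and 4. How far its counts include reads of XAF1 was not tested. The ISG12(A) row, an interferon-inducible mitochondrial protein gene, was at 35.8 to 236 CPM, median 117, against 38.6 to 84.9, median 50.8.

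Several members' rows span more than 1 gene in the same way. The IFIT1 row, at 14:101213979-101251108 as deposited, takes in the RefSeq position of IFIT3, which had no row. The IFI44L row spans IFI44, and the GBP1 row, at 4:127289856-127442565, spans GBP2; both of these have rows of their own, with 0 exon bases shared. Of the 39 kept members, 10 share exon bases with another gene, from 0.622% in IFIT5 to 49.4% in STAT2; HERC5 shares 8.76%, DTX3L 7.96% with PARP9, and DDX58 7.54%. The SP110 row also reaches the RefSeq position of SP140, and the IFIT1, IFIT2 and IFIT5 rows that of LIPA. For the genes that share exon bases, and for the rows that span a second gene, the values are uncertain by an amount not measured here.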

How the data were processed

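RNA was measured by paired-end sequencing in 24 libraries, 6 groups of 4. Values are raw counts of reads per gene as the authors deposited them, made with STAR 2.4.0a, featureCounts and Subread 1.4.6-p1 according to the submitters' processing notes. The build named there is a mouse build although the features are pig genes; which pig assembly was used, and whether counting used strand, is not given in the sources used here. Overlapping or antisense genes can therefore share reads. Coordinates are as deposited. Gene symbols were looked up by identifier (14857 matched); RefSeq positions (Sscrofa11.1) served only to show which genes a row spans. The 5988 features that are not pig genes were left out of library sizes.

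Counts were scaled with TMM factors and kept by filterByExpr (14172 genes). Groups were compared by the quasi-likelihood F test of edgeR (edgeR 4.0.16, limma 3.58.1, R 4.3.3, robust) with 1 term per group and no block, leaving 18 residual degrees of freedom. The Benjamini-Hochberg adjustment ran over all genes tested, with calls under 0.05. Tests are two-sided. Shares of all genes called are at the adjusted p. Member counts at an unadjusted p have no share of all genes beside them, except for the flagellin interaction with the set at 2 h. log2 CPM uses a prior count of 2. The replicate set was tested with the number as a factor, and its interaction with 12 cells of group and set. Alternatives were RLE scaling, no count filter, DESeq2 1.42.0, the replicate block, 1 term for each set and time, only the groups compared, each set alone, leaving out each library, and, chosen after seeing the data, leaving out 5 libraries low in ciliated markers. Scripts were tested on simulated data. Per the labels, groups share replicate numbers. Same-numbered libraries deviated together (r 0.211 to 0.797, over 0.1 in 60 of 60 pairs). These values include the difference between the sets, and the library of the same number was the closest in 35 of the 60 pairs. Pairing by single number within a set is thus not shown. Blocked values stand beside results they change. No 2 libraries of a group were duplicates (chi-square per gene 10.3 to 390.3 over 36 pairs).

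Members and lists were chosen with earlier results of these data known. All kept members may be named; per comparison the called ones are, or the 4 with the largest log2 fold change where none was called, the 5 genes most like the members' mean, and genes of a fixed list of 40 ligand, receptor and signalling genes and of 40 other interferon-stimulated genes. Depth limits low members: 3 counts, the most a count of 0 allows, lie between 0.0808 and 0.112 CPM, for counting error only. A result for 1 gene of the ligand, receptor and signalling list is not reported here.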

Additional observations from a re-analysis of the deposited data

Results flagged for a closer look

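Each of the 39 members and their mean were examined in the 6 groups of 4 libraries, 240 sets of values in all. In 11 of them, 1 library stood apart from the other 3 in log2 CPM, where chance gives about 5%; all 11 were single members. Low values were RSAD2 in PBS at 24 h replicate 4 (1.42, the nearest library at 3.07), BST2 (2.19) and CXCL10 (0.64) in flagellin at 2 h replicate 3, GBP1 in PBS at 2 h replicate 2 (1.76), DTX3L in flagellin at 24 h replicate 2 (2.78), and GBP2 in replicate 4 of PBS at 24 h (1.90) and of flagellin at 24 h (1.90). High values were IFIH1 (5.33) and ADAR (5.54), the RNA-editing enzyme, in SB203580 plus flagellin at 2 h replicate 1, PARP9 in flagellin at 24 h replicate 1 (4.79) and DTX3L in SB203580 plus flagellin at 24 h replicate 3 (3.775). Replicate 1 of SB203580 plus flagellin at 2 h, replicate 3 of flagellin at 2 h and replicate 4 of PBS at 24 h each held 2 of the 11.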

How the results depend on the processing

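The count of members lower or higher in replicates 3 and 4 stayed between 20 and 28 in all alternatives run (26 as reported), against 46.9% to 64% of all genes. The 6 treatment comparisons gave 0 calls under all alternatives except the term for the set, which called 1 member each for SB203580 plus flagellin against PBS at 2 h and at 24 h. Among the members the replicate block changed calls only between times: it called 4 members in PBS, 3 in flagellin and 2 in SB203580 plus flagellin, where the fit without it called 2, 0 and 1. The term for the set called 5, 7 and 5. Fits on only the groups compared called 1 in PBS (3.93% of all genes) and 0 in SB203580 plus flagellin (0.871%). Replicates 1 and 2 alone called 4 in PBS (15.2%), 2 in flagellin (10.9%) and 0 in SB203580 plus flagellin (10.9%), and replicates 3 and 4 alone 5 in flagellin (27.7%) and 6 in SB203580 plus flagellin (24.7%). DESeq2 called 1 in flagellin (11.5%), and without the 5 libraries low in ciliated markers 1 was called in PBS (10.5%). Leaving out 1 library gave 0 to 2 calls in PBS and 0 to 1 in flagellin. The cause of these changes was not tested. Within-set fits reversed the members' median at 2 h (flagellin against PBS -0.43 and SB203580 plus flagellin against PBS -0.49 in replicates 3 and 4). With a median SE of 0.41 for members, small changes could not be detected in the treatment comparisons.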
